A study of Homo sapiens with 24 samples.

Results

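Cultured cells of the human ovarian cancer lines OVCAR8 and SKOV3 were compared after both had been made to overexpress c-Fos, to see which differences between the lines remain, appear or are lost. The comparison takes the 3 arrays titled as OVCAR8 cells with c-Fos and the 3 titled as SKOV3 cells with c-Fos, 6 of the 24 arrays of the series. The choice rests on the sample titles and on no measured value. The other 18 arrays hold control cells of both lines in culture and tumours of the same cells grown in immunodeficient mice. The submitters studied how c-Fos overexpression bears on the transcriptome and the metastatic behaviour of OVCAR8, set against SKOV3. Control cultures, 3 arrays per line, and c-Fos tumours, 3 arrays per line, were used beside the c-Fos cultures.

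Per the labels, the c-Fos cells are stable clones carrying the plasmid c-Fos-pIRES-P, which holds the full-length c-Fos cDNA in a bicistronic vector. The number of clones is not given, so what c-Fos did and what differs between clones cannot be told apart. All cultures were grown in phenol red-free DMEM with FCS and insulin, and the labels add no further allele or agent in culture. Whether the 3 arrays per group stem from separate cultures is not stated. The p-values therefore reflect the spread among these arrays alone, which may be technical. The OVCAR8 and SKOV3 c-Fos arrays carry different date labels, so line and array date cannot be told apart. The SKOV3 controls share their label with the SKOV3 c-Fos arrays and the OVCAR8 controls have one of their own. In OVCAR8, c-Fos and array date therefore cannot be told apart either. This bears on every change of a line difference between control and c-Fos cells.

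c-Fos is a basic leucine zipper protein that pairs with a Jun protein to form the transcription factor AP-1. AP-1 binds short palindromic sites in promoters and enhancers and is known for genes of proliferation, matrix breakdown, inflammation and cell movement. In epithelial cancers AP-1 subunits are tied to invasion, and collagenase MMP1 is a classic target.

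Both sets of c-Fos cells showed the keratins of an epithelial tumour. KRT8 was at 12.96 ± 0.11 in OVCAR8 and 12.44 ± 0.24 in SKOV3, KRT7 at 12.16 ± 0.01 and 11.60 ± 0.51, and the Müllerian lineage factor PAX8 at 9.99 ± 0.06 and 9.46 ± 0.83 (deposited log2 level, mean ± SD, n = 3 arrays). E-cadherin CDH1 was at 6.24 ± 0.08 and 6.51 ± 1.13, and MUC16, the gene of the CA125 antigen, at 5.94 ± 0.12 and 6.20 ± 0.73. The leukocyte gene PTPRC was at 3.92 ± 0.03 and 5.16 ± 1.5, and the endothelial genes CDH5 at 5.96 ± 0.08 and 6.39 ± 0.53 and PECAM1 at 5.55 ± 0.13 and 5.83 ± 0.32. Mean levels over the 13 leukocyte markers ranged from 5.96 to 6.02 on the OVCAR8 arrays and from 5.88 to 7.09 on the SKOV3 arrays. Over 12 endothelial markers they ranged from 5.94 to 6.01 and from 5.75 to 6.83, and over 12 fibroblast markers from 5.92 to 6.10 and from 6.38 to 6.46. The highest leukocyte, endothelial and fibroblast means were all on 1 array, SKOV3 c-Fos array 1.

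That array stands apart. Over all 33297 probe sets its levels had an SD of 1.557 on the log2 scale, against 2.238 to 2.364 on the other 11 culture arrays. Their interquartile range was 1.82, against 3.32 and 3.39 on SKOV3 c-Fos arrays 2 and 3. Array 1 differed at least 2-fold from array 2 in 9598 of 18417 genes and from array 3 in 10215. Arrays 2 and 3 differed that much in 329 genes, and no pair of OVCAR8 c-Fos arrays in any. In 4 equal bins of genes by mean level, the lowest bin read a median of 1.19 higher on array 1 than on the mean of arrays 2 and 3, and the highest bin read -1.40 against it. Results are given from a fit of 12 culture arrays, with the values of a fit of the 11 culture arrays without SKOV3 c-Fos array 1 beside them. Standard errors and fold changes are those of the 12-array fit unless another is named. A positive difference means a higher level in OVCAR8, and a gene was called at a limma adjusted p under 0.05.

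**Figure D1:**
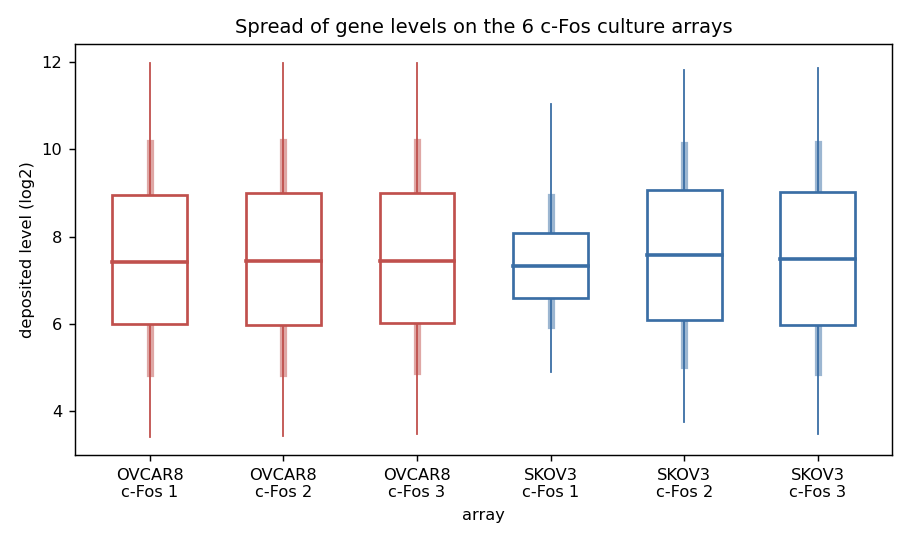
Deposited log2 levels of 18417 genes on each c-Fos culture array. Boxes span the interquartile range with the median as a line, and thick and thin lines reach to wider percentiles. SKOV3 array 1 has the narrowest box, from 6.59 to 8.09.

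FOS itself was high in both lines. It read 10.89, 10.98 and 11 on the OVCAR8 c-Fos arrays and 10.36, 11.61 and 11.18 on the SKOV3 c-Fos arrays. The groups overlapped, with SKOV3 array 1 lowest and array 2 highest of all. The difference was -0.09 ± 0.26 (SE, adjusted p = 0.803) with 12 arrays and -0.43 ± 0.12 (adjusted p = 0.0117) with 11. Control cells were lower, at 8.87 ± 0.14 in OVCAR8 and 8.63 ± 0.10 in SKOV3. A probe set for FOS reads the transcript of the plasmid and of the cell's own gene together.

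The line differences in c-Fos cells were many. With 12 arrays, 3775 of 18417 genes were called (20.5%), 2189 higher in OVCAR8 (11.9%) and 1586 higher in SKOV3 (8.61%). With 11 arrays 9303 were called (50.5%), 4183 higher in OVCAR8 (22.7%) and 5120 higher in SKOV3 (27.8%). All 3775 were among them with the same sign, while the share of calls higher in OVCAR8 went from 58.0% to 45.0%. Which line held more calls also turned with other settings. With 11 arrays scaled to a common median and interquartile range 5560 genes were higher in OVCAR8 and 4211 in SKOV3 (56.9%), and with 12 arrays and array weights the share was 39.8%. The median difference of all genes was -0.12 with 12 arrays and -0.04 with 11. With only the c-Fos arrays in the fit 796 genes were called, all among the 3775, and 7209 without SKOV3 c-Fos array 1. Each fit estimates 1 spread per gene over all its groups. Yet the median SD per gene was 0.65 in SKOV3 c-Fos cells and 0.07 in OVCAR8 c-Fos cells. In control cells it was 0.06 in OVCAR8 and 0.09 in SKOV3. The c-Fos standard errors and p-values with 12 arrays therefore tend to be too small. Without SKOV3 c-Fos array 3 the 12-array count became 7584, without array 2 it was 4511, and without any 1 OVCAR8 c-Fos array it lay between 2231 and 2304. Values of the 3 OVCAR8 and 3 SKOV3 arrays did not overlap in 6615 genes (35.9%), and in 11128 (60.4%) when array 1 was left out.

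In the control cells of the same fits 3080 genes were called (16.7%) with 12 arrays and 9953 (54.0%) with 11. The c-Fos and control contrasts share no array, but each fit estimates 1 spread per gene over all its groups. SKOV3 c-Fos array 1 thus enters the control p-values too. The SE of the control difference of MFAP5, for one, was 0.26 with 12 arrays and 0.12 with 11. With the control groups fitted alone 11569 genes were called. Whether a gene counts as appeared with 12 arrays therefore depends in part on that array. Called in both were 1682 genes, which is 44.6% of the c-Fos calls and 54.6% of the control calls, or 6555 genes with 11 arrays (70.5% and 65.9%). A line difference is termed kept here when both contrasts called it with 1 sign, and turned when the signs were opposite. It is termed appeared when called only in c-Fos cells, larger there, and with a called difference between the 2 line differences, and lost in the reverse case. Kept were 1589 genes, turned 93, appeared 251 and lost 383 with 12 arrays. With 11 arrays these were 5614, 941, 1522 and 1666. All 1589 kept and 93 turned genes stayed in their class, as did 108 of the 251 appeared and 222 of the 383 lost genes. Of the other appeared genes 41 became kept and 102 turned once more control differences were called. The difference between the 2 line differences was called in 909 genes (4.94%) and 6362 genes (34.5%).

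**Figure D2:**
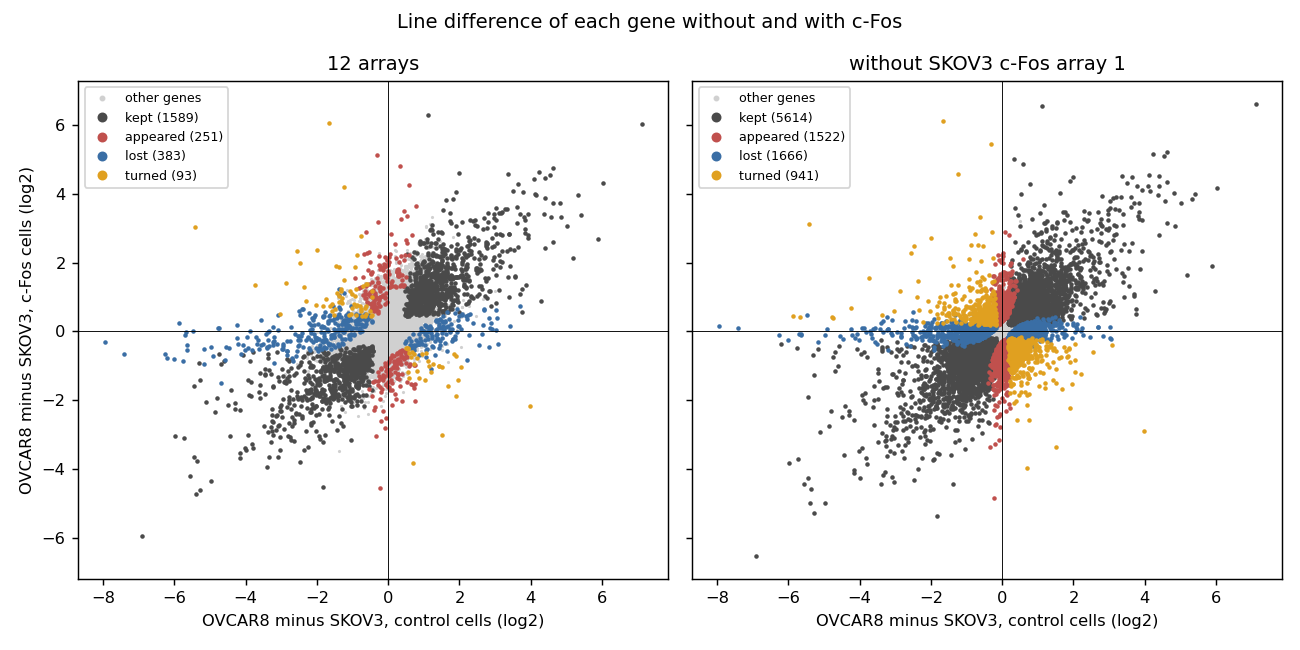
OVCAR8 minus SKOV3 in control cells (x axis, log2) against the same in c-Fos cells (y axis, log2), 1 point per gene, with 12 arrays at left and without SKOV3 c-Fos array 1 at right. Colours mark the classes; with 12 arrays 1589 genes are kept, 251 appeared, 383 lost and 93 turned.

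The largest differences were sought only among genes whose c-Fos values did not overlap between the lines. Of those higher in OVCAR8, SPARC had the largest difference with 12 arrays and UBE2G1 with 11. SPARC, a secreted matricellular glycoprotein that binds collagen, read 12.43, 12.42 and 12.41 in OVCAR8 and 6.60, 6.04 and 5.74 in SKOV3. All OVCAR8 values lay far above all SKOV3 values, a difference of 6.29 ± 0.20 (78.5-fold, adjusted p = 1.48e-08) that was 6.53 without array 1. In control cells SPARC was at 12.56 ± 0.02 and 11.45 ± 0.09, a difference of 1.11, so the gap between the lines was 5.18 wider with c-Fos (adjusted p = 2.38e-06). MFAP5, a microfibril protein, read 12.01, 12.04 and 11.96 in OVCAR8 against 7.56, 6.84 and 6.29 in SKOV3. The groups did not overlap and differed by 5.11 ± 0.26 (34.4-fold), whereas the controls were at 10.31 and 10.63, with a difference of -0.32 (adjusted p = 0.532). With 11 arrays that control difference was called (adjusted p = 0.0392), which makes MFAP5, at 5.44 with c-Fos, appeared with 12 arrays and turned with 11. OLR1, a scavenger receptor for oxidised LDL, showed 10.30, 10.33 and 10.20 against 5.93, 5.47 and 5.08, and 5.43 against 5.10 in the control cells. Its line difference of 4.79 ± 0.21 (5.01 with 11 arrays) was classed as appeared with 12 arrays and as kept with 11.

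Other large differences in the same direction were also called in the controls. UBE2G1, a ubiquitin-conjugating enzyme, read 11.89, 11.96 and 11.89 in OVCAR8 and 7.06, 5.82 and 4.79 in SKOV3. Every OVCAR8 value was above every SKOV3 value, by 6.02 ± 0.42 with c-Fos and 7.11 in the controls, and the 2 differences were not called apart (adjusted p = 0.357). With 11 arrays UBE2G1 differed by 6.61. MX2, an interferon-induced GTPase, and CGAS, the cytosolic DNA sensor, differed by 4.75 ± 0.31 and 4.62 ± 0.34, against 4.62 and 4.22 in controls. INA, a neuronal intermediate filament, differed by 4.54 against 4.53, the long non-coding RNA AFAP1-AS1 by 4.44 against 4.41 and LY6K by 4.42 against 4.09. With 11 arrays MX2, CGAS and INA differed by 5.22, 5.14 and 5.10, wider than in controls by 0.60, 0.92 and 0.57 (adjusted p = 0.000374, 0.000535 and 0.043), while AFAP1-AS1 and LY6K, at 4.52 and 4.22, were not called apart from their controls. CRYAB, a small heat shock protein, and UCHL1, a neuronal deubiquitinase, differed by 4.60 and 4.57, more than the 1.99 and 3.36 of the controls (adjusted p of the widening 8.36e-05 and 0.00544). With 11 arrays they differed by 4.48 and 4.52.

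Genes higher in SKOV3 were led by SC5D, the enzyme that introduces the C5 double bond late in cholesterol synthesis. It read 3.50, 3.68 and 3.74 in OVCAR8 and 8.39, 9.33 and 10.99 in SKOV3. The groups were far apart although the SKOV3 arrays spread widely, and the difference was -5.93 ± 0.47 (61.0-fold, adjusted p = 9.64e-06), -6.52 without array 1 and -6.91 in controls. The Golgi protein GOLIM4 differed by -4.72 ± 0.26, the DNA glycosylase NEIL3 by -4.59 ± 0.46, the microtubule-linked ubiquitin ligase MID1 by -4.34 ± 0.42 and the mitochondrial cochaperone DNAJC15 by -4.20 ± 0.22. Their control differences were -5.39, -5.29, -4.98 and -5.56, and that of DNAJC15 was called larger than with c-Fos (adjusted p = 0.03). With 11 arrays GOLIM4, NEIL3, MID1 and DNAJC15 differed by -4.99, -5.27, -4.99 and -4.42 in c-Fos cells. GLB1L2, HACD4 and PDCD10 differed by -3.78, -3.75 and -3.66, or by -4.31, -4.56 and -4.01 with 11 arrays, and were kept as well. CYP24A1, the vitamin D 24-hydroxylase, read 7.28, 9.68 and 9.88 in SKOV3 c-Fos cells and at most 4.61 in OVCAR8, a difference of -4.52 ± 0.52. In controls it was -1.82, and the widening was called with 11 arrays (adjusted p = 1.3e-08) but not with 12 (adjusted p = 0.0638).

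Some line differences changed sign. CALB1, a calcium-binding protein of neurons and kidney, read 9.83, 9.96 and 9.80 in OVCAR8 c-Fos cells and 7.00, 6.80 and 6.68 in SKOV3 c-Fos cells. In the controls the order was opposite, 5.29 ± 0.09 in OVCAR8 and 10.73 ± 0.16 in SKOV3. Thus OVCAR8 minus SKOV3 was 3.04 ± 0.15 with c-Fos and -5.43 without. MMP1, the interstitial collagenase, read 12.01, 12.14 and 12.03 in OVCAR8 against 6.12, 5.78 and 6.12 in SKOV3. The groups did not overlap, and the difference of 6.06 ± 0.19 (66.5-fold) stood against -1.66 in the controls, where OVCAR8 was at 7.46 and SKOV3 at 9.12. NID2, the basement membrane protein nidogen-2, was at 10.65, 10.72 and 10.75 against 7.32, 6.46 and 5.79, and at 9.13 against 10.35 in controls. Its difference went from -1.23 to 4.18 ± 0.29. With 11 arrays the c-Fos differences of CALB1, MMP1 and NID2 were 3.12, 6.11 and 4.58. All 3 stayed in this class, which their choice as turned genes required.

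CPA4 and FGF5 turned the other way. CPA4, a secreted carboxypeptidase, read 7.17, 7.01 and 7.06 in OVCAR8 c-Fos cells and 7.73, 9.99 and 9.97 in SKOV3 c-Fos cells. SKOV3 array 1 was closest to OVCAR8, and the difference was -2.15 ± 0.47 (adjusted p = 0.00781), or -2.90 (7.45-fold, adjusted p = 7.37e-10) without it. In controls OVCAR8 was at 10.62 and SKOV3 at 6.64, a difference of 3.98. FGF5, a growth factor, read 7.46, 7.28 and 7.59 against 10.95, 11.11 and 11.70, a difference of -3.81 ± 0.21, and 8.47 against 7.78 in controls. LEF1, a transcription factor of the WNT pathway, differed by -3.0 ± 0.26 with c-Fos and by 1.51 without. Transglutaminase TGM2 turned upward, from -0.76 to 2.77 ± 0.17. With 11 arrays FGF5, LEF1 and TGM2 differed by -3.96, -3.36 and 2.82 and stayed turned. The OVCAR8 and SKOV3 groups overlapped in none of CALB1, MMP1, NID2, CPA4 and FGF5.

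The promoter of CPA4 is shown because it holds TGANTCA, the pattern used here for AP-1 sites, with any base at N. The window runs from 250 bases before to 50 after the gene start. The same window of FST, which encodes the activin antagonist follistatin, holds the pattern once, and so do those of TMPRSS15, the gene of enteropeptidase, and CXCL8, the gene of interleukin-8. The letters are TGATTCA in FST and TMPRSS15, TGACTCA in CXCL8, and TGAGTCA and TGACTCA in CPA4. Sequences are from RefSeq on GRCh38.p14, 5′ to 3′ on the strand of the gene. CPA4 lies at chr7:130292911-130293210 (plus strand), FST at chr5:53480379-53480678 (plus), TMPRSS15 at chr21:18403736-18404035 (minus) and CXCL8 at chr4:73740319-73740618 (plus). Capitals mark TGANTCA, which reads the same on both strands.
CPA4: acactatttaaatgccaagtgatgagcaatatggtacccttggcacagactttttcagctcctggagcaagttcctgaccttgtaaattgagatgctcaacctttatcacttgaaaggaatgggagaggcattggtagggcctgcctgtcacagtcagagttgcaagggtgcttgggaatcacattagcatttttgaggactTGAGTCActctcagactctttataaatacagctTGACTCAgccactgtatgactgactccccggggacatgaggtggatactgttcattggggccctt
FST: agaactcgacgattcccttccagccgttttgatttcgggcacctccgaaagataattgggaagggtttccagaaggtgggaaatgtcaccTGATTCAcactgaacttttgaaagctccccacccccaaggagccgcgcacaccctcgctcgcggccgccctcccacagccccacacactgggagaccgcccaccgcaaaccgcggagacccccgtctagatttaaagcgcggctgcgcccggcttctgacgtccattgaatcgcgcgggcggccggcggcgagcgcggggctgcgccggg
TMPRSS15: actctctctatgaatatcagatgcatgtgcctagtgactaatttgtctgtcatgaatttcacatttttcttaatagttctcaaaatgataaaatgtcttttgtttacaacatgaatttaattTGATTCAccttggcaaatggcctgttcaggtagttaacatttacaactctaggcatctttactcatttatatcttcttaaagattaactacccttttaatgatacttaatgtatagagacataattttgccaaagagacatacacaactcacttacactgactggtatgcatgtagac
CXCL8: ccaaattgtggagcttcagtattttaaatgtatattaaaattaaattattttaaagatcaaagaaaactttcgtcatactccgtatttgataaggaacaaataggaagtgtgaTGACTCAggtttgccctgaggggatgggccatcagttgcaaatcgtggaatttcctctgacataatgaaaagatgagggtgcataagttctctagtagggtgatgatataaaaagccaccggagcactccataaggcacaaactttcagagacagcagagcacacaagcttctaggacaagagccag

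Counted from the gene start, the first motif begins at -48 in CPA4, which holds another nearer the start, at -160 in FST, at -128 in TMPRSS15 and at -137 in CXCL8. A match is a description of these letters, not of binding, and the shares below count any middle base. The motif was in 7.76% of all 27305 RefSeq promoters, and of 14237 tested genes with a promoter 5.58% did. Among the genes called higher in OVCAR8 the share was 4.99% (85 of 1705), among those higher in SKOV3 4.60% (57 of 1240), among appeared genes 6.15% (12 of 195) and among kept genes 4.50% (54 of 1199). With 11 arrays the shares were 5.31%, 4.69%, 4.71% and 4.58%. Of these 8 shares that of the appeared genes with 12 arrays, resting on 12 promoters, was above that of all tested genes. With only the 2 c-Fos groups in the fit the share among genes higher in OVCAR8 was 5.76%, above it too.

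Differences that appeared with c-Fos ran both ways. ANKRD30B, an ankyrin repeat gene, read 7.47, 7.18 and 9.45 in SKOV3 c-Fos cells and 3.38, 3.61 and 3.46 in OVCAR8 c-Fos cells. Both control lines were near the OVCAR8 level, at 3.56 and 3.79, so only the 3 SKOV3 c-Fos arrays were high. The difference was -4.55 ± 0.45 with c-Fos (23.4-fold) and -0.23 in controls (adjusted p = 0.88). TMPRSS15 showed 6.21, 6.66 and 7.69 in SKOV3 against 3.88, 3.6 and 4.01 in OVCAR8, a difference of -3.02 ± 0.30 against -0.33 in controls. FST read 7.48, 8.03 and 7.60 in SKOV3 and 6.04, 6.05 and 5.92 in OVCAR8, while the SKOV3 controls were at 6.00 and the OVCAR8 controls at 6.09. STAC, MOXD1, CFAP299 and SDR42E1 were also higher in SKOV3, by differences of -2.51, -2.59, -2.13 and -1.95 against -0.07, -0.19, 0.12 and 0.22 in controls. With 11 arrays ANKRD30B, TMPRSS15 and FST differed by -4.83, -3.34 and -1.81, and STAC, MOXD1, CFAP299 and SDR42E1 by -2.77, -3.26, -2.31 and -2.22. All 7 were classed as appeared there too, but the choice of all but FST required this.

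Towards OVCAR8, MYEOV appeared with 9.86, 9.87 and 9.94 against 7.19, 7.05 and 6.97. Its controls were at 9.17 and 9.10, so the SKOV3 c-Fos arrays were the low ones, and the difference was 2.82 ± 0.15. The nicotinic receptor subunit CHRNA5 differed by 2.18 ± 0.38, the complement protease C1S by 2.55 ± 0.22, the matrix protein thrombospondin-1 (THBS1) by 2.26 ± 0.35, the mitochondrial import receptor TOMM22 by 1.91 ± 0.38 and L3MBTL4 by 2.15 ± 0.22. In controls the same 5 genes differed by -0.26, 0.20, 0.04, -0.22 and 0.02. TOMM22 read 10.91 on SKOV3 c-Fos array 3 and 9.13 and 9.16 on arrays 1 and 2, and its difference without array 1 was 1.61. ETV4, an ETS factor of ERK signalling, and the mucin MUC1 appeared too, at 2.03 ± 0.22 and 1.47 ± 0.16 against 0.01 and 0.10. With 11 arrays MYEOV differed by 2.88, CHRNA5 by 1.61, C1S by 2.80, THBS1 by 1.72, L3MBTL4 by 2.29, MUC1 by 1.57 and ETV4 by 2.0. These were appeared genes there too, but the choice by size of all but MUC1 and ETV4 required this.

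Differences were lost in both directions. Ceruloplasmin (CP), a copper-carrying ferroxidase, was at 12.25 in SKOV3 controls and 4.31 in OVCAR8 controls. With c-Fos it read 5.82, 4.54 and 4.31 in SKOV3 and 4.54, 4.52 and 4.70 in OVCAR8. The c-Fos groups overlapped, with a difference of -0.31 ± 0.33 (adjusted p = 0.497) against -7.94 in the controls. Osteopontin (SPP1) went from -7.41 to -0.65 ± 0.49, the kynurenine pathway enzyme KYNU from -6.26 to -0.65, prostacyclin synthase PTGIS from -5.69 to -0.10, the steroid-reducing AKR1C3 from -5.47 to 0.01 and the cadherin CDH6 from -5.65 to -0.39. On SKOV3 c-Fos array 1, SPP1 read 7.71 against 5.68 and 5.21 on arrays 2 and 3, and KYNU 5.83 against 4.30 and 4.08. Without it the differences of CP, SPP1 and KYNU were 0.16, 0.10 and -0.11, and those of PTGIS, AKR1C3 and CDH6 -0.07, 0.47 and -0.06.

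Lost in the other direction were genes high in OVCAR8 controls. The formin FMN2 went from 2.84 to -0.46 ± 0.24, the metallothionein MT1E from 3.02 to 0.03, the TEAD cofactor VGLL3 from 3.06 to 0.39, NRSN2 from 3.03 to 0.63, TSHZ3 from 2.26 to -0.11 and TTLL7 from 2.68 to 0.61. VGLL3, NRSN2 and TTLL7 read 6.42, 6.97 and 6.79 on SKOV3 c-Fos array 1 and at least 8.07 on the other SKOV3 c-Fos arrays. Without array 1 FMN2, MT1E, VGLL3, NRSN2, TSHZ3 and TTLL7 differed by -0.12, -0.18, -0.23, 0.14, -0.09 and 0.13. None of these was called, but the lost genes were chosen to be lost in both fits, which requires this. Metallothionein genes of this family are near copies, so the share of MT1E in its signal is uncertain.

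**Figure D3:**
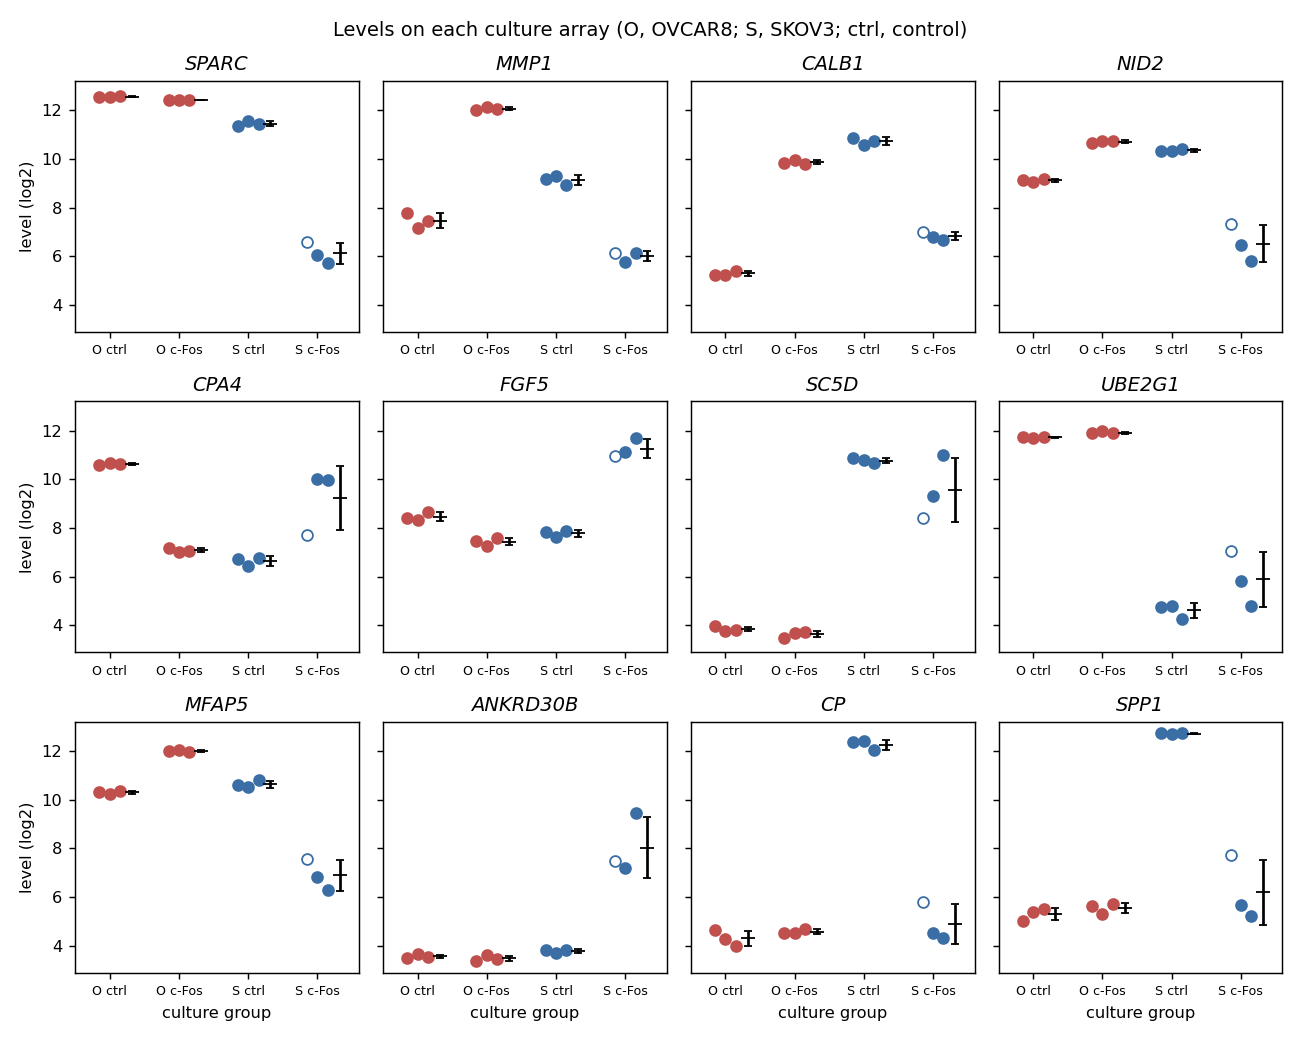
Deposited log2 levels of 12 genes on each culture array of the control (ctrl) and c-Fos groups of OVCAR8 (O) and SKOV3 (S). Circles are arrays, the open circle SKOV3 c-Fos array 1, and bars the mean ± SD of 3 arrays; CALB1 reads 9.80 to 9.96 in OVCAR8 c-Fos cells and 6.68 to 7.00 in SKOV3 c-Fos cells, the reverse of the control cells.

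The 36 gene lists below are described by how many of their tested genes were called and by their median difference, beside the shares and medians of all genes given above. With 12 arrays 11 of 36 medians lay above 0 and with 11 arrays 16 did. In the lowest of the 4 bins by level the median difference was -0.49 with 12 arrays and -0.08 with 11, and in the highest bin 0.52 and 0.06.

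AP-1 subunits were called in either direction. Of 16 tested, FOS included, 3 were called higher in OVCAR8 and 2 higher in SKOV3 with 12 arrays, 5 and 6 with 11, and the median was 0.03 and -0.06. FOSB differed by 1.11 ± 0.18, and by 1.36 in the controls. ATF4, a stress-response partner, differed by 0.93 ± 0.23 and FOSL1, the subunit Fra-1, by 0.58 ± 0.16, but FOSL1 gave -0.45 when each array was scaled to a common median and interquartile range. JUND was higher in SKOV3, at -0.71 ± 0.22 (adjusted p = 0.0423), and BATF3 at -0.44. With 11 arrays FOSB, ATF4, FOSL1, JUND and BATF3 differed by 1.28, 0.62, 0.70, -0.87 and -0.41, and ATF4, FOSL1 and JUND were then classed as appeared. JUNB had differed by -1.61 in the controls and differed by -0.20 ± 0.22 with c-Fos (adjusted p = 0.495), a lost difference with 12 arrays and a kept one with 11. Of 21 AP-1 target genes 5 were higher in OVCAR8 and 3 in SKOV3, or 8 and 8 with 11 arrays, against 0 and 9 in the controls with 12 arrays. Interleukin-6 (IL6) was among the former at 2.64 ± 0.28, haem oxygenase HMOX1 and CXCL8 among the latter at -2.20 and -2.12, and DUSP1, an immediate early phosphatase, differed by 1.89. With 11 arrays these 4 genes differed by 3.05, -2.49, -2.44 and 1.17, and IL6 passed from appeared to kept.

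Matrix genes were called in both directions. Of 44 tested, 15 were higher in OVCAR8 and 10 in SKOV3, and with 11 arrays 18 and 16, with medians of 0.11 and -0.07. Beside SPARC, NID2 and THBS1, the laminin chain LAMA1 differed by 3.24 ± 0.20 and the collagen chain COL1A1 by 2.27 ± 0.21. Lumican (LUM) and decorin (DCN), both small leucine-rich proteoglycans, were higher in SKOV3. LUM read 5.68, 8.13 and 8.92 in SKOV3 and 3.95, 4.27 and 4.09 in OVCAR8, and DCN differed by -1.54 ± 0.19. With 11 arrays LAMA1, COL1A1 and DCN differed by 3.48, 2.52 and -1.62. LUM differed by -3.47 ± 0.61, and by -4.42 without SKOV3 array 1. COL1A1, LUM and DCN are also fibroblast markers, of which 2 of 12 were higher in OVCAR8 and 3 in SKOV3, or 3 and 4 with 11 arrays.

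Adhesion genes were called in both directions, as all genes were. Of 24 integrins 2 were called higher in OVCAR8 and 6 in SKOV3, or 8 and 9 with 11 arrays. ITGB4, the hemidesmosome chain, differed by 1.42 ± 0.19 and ITGB6, which activates TGF-beta, by -1.26 ± 0.16, less than its -3.47 in controls (adjusted p of the change 0.000177). With 11 arrays they differed by 1.65 and -1.21. Among 27 selectins and adhesion receptors 4 were higher in OVCAR8 and 3 in SKOV3, or 6 and 4 with 11 arrays. ICAM2 read 10.30, 10.50 and 10.43 against 8.04, 6.20 and 6.06, and differed by 3.64 ± 0.40 with c-Fos and 0.77 in controls. ICAM1, a ligand of leukocyte integrins, differed by 2.84 against 3.40 in the controls. With 11 arrays ICAM2 and ICAM1 differed by 4.28 and 3.10, and ICAM2 passed from appeared to kept. Of 21 ligand carriers and mucins 5 were higher in OVCAR8 and 3 in SKOV3 with 12 arrays, but 5 and 8 with 11, so which line held more calls turned. Of 46 genes of sialyl Lewis synthesis 4 and 5 were called, or 11 and 12 with 11 arrays. Among the carriers LGALS3BP differed by 3.19 ± 0.24 and mesothelin (MSLN) by 2.83 ± 0.37. LGALS3BP had differed by -0.28 in controls, and MSLN by 3.38. With 11 arrays they differed by 2.88 and 3.41, and LGALS3BP passed from appeared to turned.

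Epithelial junction genes had 10 of 37 members higher in OVCAR8 and 2 in SKOV3, or 15 and 7 with 11 arrays, and medians of -0.09 and 0.12. KRT18 differed by 1.81 ± 0.28 and KRT8 by 0.52 ± 0.15, though KRT8 gave -0.96 (adjusted p = 0.461) under the scaling to a common interquartile range. With 11 arrays KRT18 and KRT8 differed by 1.40 and 0.39. The mesenchymal list of 29 had 5 and 2, or 11 and 10. SNAI2, the repressor Slug, read 8.77, 8.90 and 8.92 in OVCAR8 and 11.48, 12.16 and 12.37 in SKOV3. The groups did not overlap, and the difference of -3.14 ± 0.21 was larger than the -1.05 of the controls (adjusted p = 0.00152), and was -3.40 with 11 arrays.

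Of 21 antigen presentation genes 7 were higher in OVCAR8 and 2 in SKOV3, with a median of 0.63, and 12 and 2 with 11 arrays, with a median of 0.46. In controls 1 was higher in OVCAR8 and 9 in SKOV3 with a median of -0.46. The turned members numbered 3 with 12 arrays. HLA-DPB1 differed by 2.94 ± 0.15, HLA-DPA1 by 1.87 ± 0.20 and the peptide transporter subunit TAP2 by 1.80 ± 0.24, against 1.22, -1.37 and -0.23 in controls. The immunoproteasome subunits PSMB8 and PSMB9 turned, from -1.30 and -1.38 to 0.96 ± 0.18 and 1.02 ± 0.15. B2M and ERAP2 stayed higher in SKOV3, at -1.46 ± 0.27 and -1.11 ± 0.34, against -3.84 and -3.35 in controls. With 11 arrays HLA-DPB1, HLA-DPA1, TAP2, PSMB8, PSMB9, B2M and ERAP2 differed by 2.91, 1.89, 1.46, 0.87, 1.10, -1.80 and -1.64, and TAP2 passed from appeared to turned. HLA genes vary between people and are near copies, so a probe set's level also depends on the allele.

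Interferon-stimulated genes had 9 of 51 members higher in OVCAR8 and 6 in SKOV3, against 3 and 20 in the controls, and medians of -0.13 and -0.57. With 11 arrays the c-Fos counts were 18 and 16 and the median -0.03. IFITM2, an inhibitor of virus entry, appeared at 2.14 ± 0.20 and IFI35 turned from -1.46 to 1.89 ± 0.22, while the antiviral synthetase OAS3 stayed higher in SKOV3 at -1.44 ± 0.29. With 11 arrays IFITM2, IFI35 and OAS3 differed by 1.94, 2.13 and -1.84. Of 42 cytokine and NF-kB genes 9 and 9 were called, or 14 and 11 with 11 arrays. The chemokine CXCL1 was at 7.27, 7.10 and 7.27 in OVCAR8 and 10.38, 10.63 and 10.72 in SKOV3, a difference of -3.37 ± 0.15. IL18 and IL32 differed by 3.83 ± 0.47 and 3.21 ± 0.14. IL18 read 8.41 on SKOV3 array 3 against 6.02 and 6.40 on arrays 1 and 2. With 11 arrays CXCL1, IL18 and IL32 differed by -3.47, 3.37 and 3.23.

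Genes of growth and division were mostly higher in OVCAR8 where called. Of 40 cell cycle genes 15 were higher in OVCAR8 and 2 in SKOV3 with a median of 0.73, and with 11 arrays 21 and 5 with a median of 0.30. CDKN2A, which encodes p16 and ARF, differed by 3.32 ± 0.35, the replication licensing factor CDC6 by 2.29 ± 0.54, the checkpoint kinase BUB1 by 2.20 ± 0.36 and RB1 by -1.93 ± 0.33. CDC6 read 6.88 on SKOV3 array 1 against 9.32 and 9.62, and its difference without that array was 1.43. CDKN2A, BUB1 and RB1 then differed by 3.80, 1.65 and -2.38. Of 36 ribosomal protein genes 14 were higher in OVCAR8 and 0 in SKOV3 (median 0.56), or 20 and 4 (median 0.33), with RPS24 at 1.74 ± 0.34, or 1.23 with 11 arrays. The mean level of the cell cycle list was 8.69 on SKOV3 array 1 and 9.68 and 9.74 on arrays 2 and 3, and that of the ribosomal list 10.68, 11.39 and 11.43. The part of that array in these counts is seen in the 11-array values. Of 28 YAP and TEAD targets 11 and 2 were called, or 12 and 6 with 11 arrays, with medians of 0.30 and 0.05. In controls the median was 0.03 for the cell cycle list, 0.30 for the ribosomal list and 0.77 for the YAP and TEAD targets. ANKRD1 read 12.09, 12.08 and 12.06 against 7.44, 7.76 and 8.08, a difference of 4.32 ± 0.21, and CCN1 differed by 1.58 ± 0.20, both less than the 6.02 and 3.57 of the controls (adjusted p of the change 0.00571 and 0.00177). With 11 arrays ANKRD1 and CCN1 differed by 4.16 and 1.33.

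HOX genes, which mark position along the body axis, were mostly lower in OVCAR8 where called. Of 27 tested, 12 were higher in SKOV3 and 2 in OVCAR8, and 13 and 3 with 11 arrays, with medians of -0.46 and -0.27 and a control median of -0.20. HOXB6 differed by -2.59 ± 0.30, HOXB5 by -2.25 ± 0.21, HOXB2 by -2.17 ± 0.15 and HOXB8 by -1.79 ± 0.15. The control differences were -3.26, -2.74, -2.03 and -2.27, and the differences of these 4 genes were not called apart with 12 arrays. With 11 arrays they were -3.02, -2.11, -2.29 and -1.76, and those of HOXB5 and HOXB8 were called smaller than in controls (adjusted p = 0.0466 and 0.0206). HOXC10 was the largest exception, at 1.54 ± 0.17 with c-Fos (1.41 with 11 arrays) and 2.80 in the controls.

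SKOV3 is known for extra copies of ERBB2, the HER2 receptor tyrosine kinase. ERBB2 read 8.68, 8.76 and 8.84 in OVCAR8 c-Fos cells and 9.37, 10.88 and 10.65 in SKOV3 c-Fos cells. The groups did not overlap, with array 1 the lowest of SKOV3, and the difference was -1.54 ± 0.31, or -2.0 without array 1. In controls it was -3.59, with 12.24 in SKOV3, and the narrowing was called (adjusted p = 0.0188). Of 19 tested genes around ERBB2 on chromosome 17, 3 were higher in SKOV3 and 1 in OVCAR8, or 7 and 2 with 11 arrays, against 9 and 1 in controls. PGAP3 differed by -2.0 ± 0.33 and by -2.29 in controls. GRB7 and PPP1R1B had differed by -1.43 and -2.50 in controls and differed by 0.04 ± 0.23 and -0.14 ± 0.20 with c-Fos. With 11 arrays PPP1R1B, at 0.11, was again lost, while GRB7, at 0.36 (adjusted p = 0.00555), was turned. IKZF3, a lymphoid factor in the same region, was higher in OVCAR8 at 2.56 ± 0.22. ERBB3, the partner receptor, differed by 3.59 ± 0.19, against 3.03. With 11 arrays PGAP3, IKZF3 and ERBB3 differed by -2.49, 2.82 and 3.78.

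The cholesterol and fatty acid list had 7 of 28 genes higher in OVCAR8 and 1 in SKOV3, or 8 and 11 with 11 arrays, with medians of 0.39 and -0.03. The 1 is SC5D, and the sterol isomerase EBP and the desaturase SCD differed by 2.27 ± 0.17 and 1.83 ± 0.20, or by 2.10 and 1.62 with 11 arrays. In the controls the median was 0.70. Among developmental signals, FGFR2 was higher in SKOV3 at -1.90 ± 0.23, and 8 of 45 WNT pathway genes were higher in SKOV3 and 3 in OVCAR8, or 15 and 7 with 11 arrays. MECOM, a transcription factor amplified in ovarian cancer, differed by -1.58 ± 0.23, against -5.44 in controls. With 11 arrays FGFR2 and MECOM differed by -2.14 and -1.89.

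Among the remaining lists, 7 of 33 immediate early and ERK feedback genes were higher in OVCAR8 and 5 in SKOV3, with 9 and 13 in the 11-array fit. Matrix proteases and their inhibitors had 6 and 7 of 42, or 12 and 13. Stress genes of amino acid shortage and unfolded proteins had 9 and 5 of 36, or 14 and 9, with a median of 0.39 that was 0.06 with 11 arrays. TGF-beta, activin and BMP genes had 5 and 4 of 44, or 8 and 20. Hypoxia and glycolysis genes had 3 and 5 of 35, or 10 and 14. Aldo-keto reductases and NRF2 targets had 3 and 2 of 29, or 8 and 10, and retinoid and aldehyde enzymes, which include TGM2, 4 and 2 of 27, or 11 and 7. Complement genes had 4 and 2 of 20, or 8 and 6, ovarian lineage genes 4 and 2 of 25, or 6 and 3, and FGF ligands and receptors 4 and 2 of 24, or 7 and 3. Apoptosis genes had 6 and 3 of 36 with 12 arrays but 9 and 11 with 11, and prostaglandin genes 2 and 2 of 21 but 4 and 8. ERBB receptors with EGF-family ligands had 1 and 3 of 17, or 3 and 5. Among these lists the line with more calls thus turned between the fits for apoptosis genes, NRF2 targets, immediate early genes and TGF-beta genes. It also turned for the AP-1 subunits, the ligand carriers and the cholesterol list above. Epithelial tumour markers had 4 of 10 higher in OVCAR8 and 0 in SKOV3, or 6 and 0 with 11 arrays. Leukocyte markers had 1 of 13 higher in OVCAR8 and 0 in SKOV3, or 4 and 1, and endothelial markers 1 of 12 and 0, or 5 and 2.

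**Figure D4:**
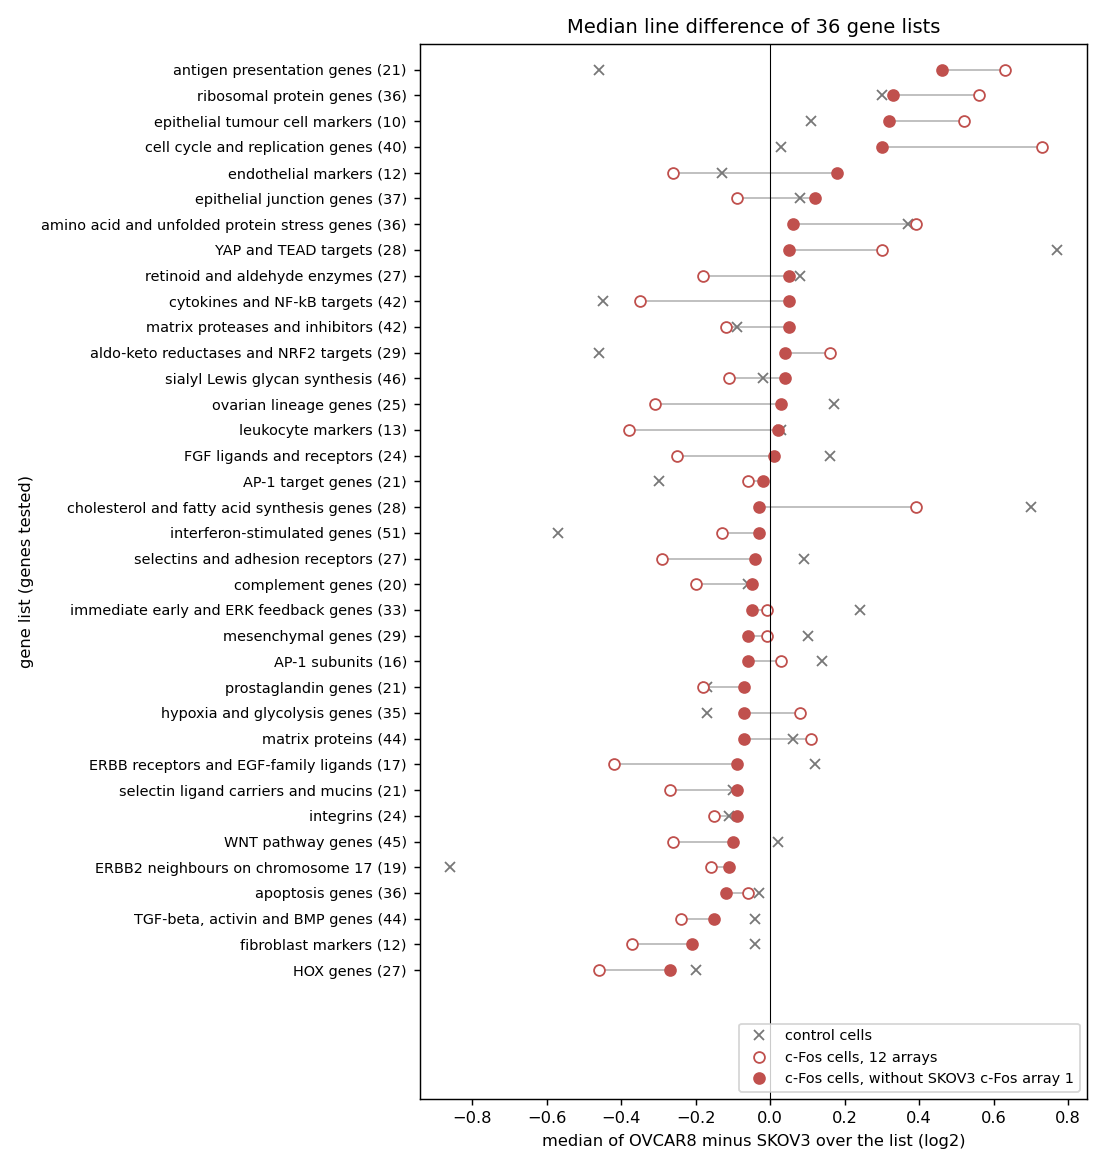
Median of OVCAR8 minus SKOV3 (log2) over the tested genes of each of 36 lists, in c-Fos cells with 12 arrays (open circles), without SKOV3 c-Fos array 1 (filled circles) and in control cells (crosses). The antigen presentation list stands at 0.63 and 0.46 with c-Fos and at -0.46 in controls.

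The protocadherin beta genes, a row of cell-surface adhesion genes on chromosome 5, were higher in SKOV3 nearly throughout. This list was put together after the values were seen. Of 16 genes 13 were higher in SKOV3 with 12 arrays and 15 with 11, and 0 were higher in OVCAR8, with medians of -2.65 and -2.68. PCDHB2 read 5.74, 5.48 and 6.07 in OVCAR8 and 8.74, 10.22 and 10.16 in SKOV3, a difference of -3.94 ± 0.33, and PCDHB15 differed by -3.39 ± 0.32. With 11 arrays they differed by -4.43 and -3.85. PCDHB1, PCDHB5 and PCDHB6 were not called with 12 arrays, at -0.71, -0.27 and -0.74, and PCDHB1 alone was not called with 11. In controls 14 of 16 were higher in SKOV3 and the median was -1.71. These genes are close copies of each other, so a probe set can read more than 1 of them.

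**Figure D5:**
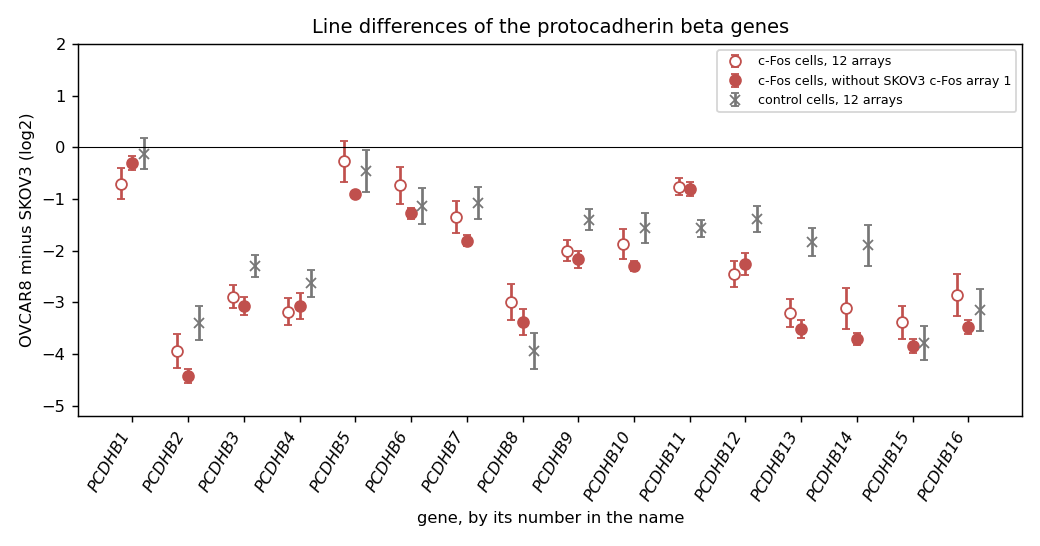
OVCAR8 minus SKOV3 (log2, ± SE) for the 16 protocadherin beta genes in c-Fos cells with 12 arrays (open), without SKOV3 c-Fos array 1 (filled) and in control cells (crosses). All points lie below 0, with PCDHB2 at -3.94 and PCDHB5 at -0.27 with 12 arrays.

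Along the genome, 5 runs of at least 3 neighbouring protein-coding genes differed by at least 2 on the log2 scale in 1 direction with 11 arrays. Of these, 3 lie in the protocadherin beta cluster. Another joins SC5D with SORL1 and BLID on chromosome 11, at -6.52, -2.45 and -2.52, and was present in controls at -6.91, -2.78 and -1.75. The last joins OLR1, TMEM52B and GABARAPL1 on chromosome 12, higher in OVCAR8 by 5.01, 2.31 and 2.14, against 0.33, 0.44 and 0.97 in the controls. Among chromosomes, 18 had the highest share of genes higher in SKOV3 (43.6% of 264 with 11 arrays) and 10 the highest share higher in OVCAR8 (35.5% of 679), beside 27.8% and 22.7% of all genes. Their medians were -0.19 and 0.08 with 11 arrays, and -0.36 and 0.10 with 12.

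Tumours grown from the same c-Fos cells in the peritoneal cavity gave separate arrays. There 6802 genes were called between the lines (36.9%), 3087 higher in OVCAR8 (16.8%) and 3715 higher in SKOV3 (20.2%). Of the 3775 genes called in culture with 12 arrays, 2394 were called with the same sign in tumours, 93 with the opposite sign and 1288 were not called. The same count for kept genes was 1249 of 1589 and for appeared genes 143 of 251. Of the 9303 genes called in culture with 11 arrays, 4654 had the same sign in tumours, 346 the opposite sign and 4303 were not called. Kept genes then gave 3479 of 5614 and appeared genes 563 of 1522, beside the 36.9% of all genes called in tumours in either direction. MFAP5 differed by 5.87 in tumours, CALB1 by 6.26, SC5D by -7.56, TMPRSS15 by -6.91 and ANKRD30B by -4.43. SPARC, first in the cultures with 12 arrays and second to UBE2G1 with 11, differed by -0.24 in tumours (adjusted p = 0.284), CYP24A1 by -0.56 (adjusted p = 0.145) and CXCL1 by 0.08 (adjusted p = 0.899). PTGIS, lost in culture, differed by -4.16. A bulk tumour holds other cells too, here those of the mouse, and how far their RNA adds to these probe sets was not tested. Fewer cells of a type and less RNA per cell cannot be told apart.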

How the data were processed

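Total RNA of 24 samples was hybridised to 1-colour Affymetrix gene arrays, and the authors deposited log2 levels for 33297 probe sets. Per the submitters' processing notes they used RMA in Affymetrix Expression Console. No source used here gives their versions or the genome build. Values were used as deposited. Of the probe sets 21214 were annotated, 19460 with 1 gene symbol and 1754 with several, and the latter were left out. Symbols were updated through RefSeq gene identifiers. Where a gene had several probe sets (769 genes) that with the highest mean was kept, which left 18417 genes.

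Groups follow the sample titles. The 4 culture groups were fitted together in limma 3.58.1 (R 4.3.3) with lmFit and eBayes, without and with SKOV3 c-Fos array 1 left out, and p-values were adjusted by the Benjamini-Hochberg method over all genes. The number of arrays limits the precision. The c-Fos tumours were fitted with the other tumours. Files were read with the R package data.table (version 1.17.8) and pandas 2.3.3 in Python 3.11.15 and drawn with matplotlib 3.10.9. The fit was tested on simulated data.

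The comparison, its members and the 36 gene lists were chosen with earlier results of these data known. Genes named are FOS and the 12 largest differences each way among genes called in both fits without overlap. Added were the 6 largest each way of the appeared and lost genes and 4 turned genes by the difference of line differences. These had to hold their class in both fits, so that they did is no result. Up to 4 called members of a list were also named. Open reading frames of unknown function, pseudogenes and small RNAs were passed over. Other genes named, such as KRT7, PTPRC, GRB7, PPP1R1B, B2M, PSMB8, PSMB9, ERAP2 and HOXC10, were list members chosen after their values were seen. Alternatives covered the arrays in the fit, array weights, the variance prior, scaling, dim genes, the probe set rule, a minimum size, the replicate number and each array left out.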

Additional observations from a re-analysis of the deposited data

Results flagged for a closer look

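The line difference with c-Fos minus that of the control cells was called, by limma's test of that difference itself with 12 arrays, in the genes given here on the log2 scale. A positive value means that OVCAR8 stood higher against SKOV3 with c-Fos than without. Classes are those of the 12-array fit. With 11 arrays MFAP5, LGALS3BP, TAP2, CD68 and GRB7 were turned, and OLR1, IL6, ICAM2 and JUNB were kept. Among turned genes it was 7.72 in MMP1, 8.47 in CALB1, 5.41 in NID2, 3.23 in HLA-DPA1, 3.35 in IFI35, 3.54 in TGM2, 2.26 in PSMB8 and 2.40 in PSMB9. The turned genes with a value the other way had -4.50 in FGF5, -6.12 in CPA4 and -4.50 in LEF1. Among appeared genes it was 5.43 in MFAP5, 4.45 in OLR1, 2.74 in MYEOV, 2.44 in CHRNA5, 2.35 in C1S, 2.22 in THBS1, 2.13 in TOMM22, 2.13 in L3MBTL4 and 2.13 in IL6. Other appeared genes had 2.88 in ICAM2, 2.02 in TAP2, 1.92 in IFITM2, 1.37 in MUC1, 3.47 in LGALS3BP, 2.02 in ETV4 and 1.42 in CD68. Other appeared genes had -4.32 in ANKRD30B, -2.70 in TMPRSS15, -2.43 in STAC, -2.40 in MOXD1, -2.25 in CFAP299, -2.17 in SDR42E1, -1.79 in FST and -1.47 in DCN. Among lost genes it was 7.63 in CP, 6.75 in SPP1, 5.61 in KYNU, 5.60 in PTGIS, 5.48 in AKR1C3, 5.25 in CDH6, 1.41 in JUNB, 1.47 in GRB7 and 2.37 in PPP1R1B. Other lost genes had -3.30 in FMN2, -3.0 in MT1E, -2.67 in VGLL3, -2.40 in NRSN2, -2.37 in TSHZ3 and -2.07 in TTLL7. Among kept genes it was 5.18 in SPARC, 2.60 in CRYAB, 1.21 in UCHL1, 1.36 in DNAJC15, 1.16 in COL1A1, 1.47 in IL32, 1.73 in HLA-DPB1, 2.05 in ERBB2 and 1.54 in IKZF3. Other kept genes had 2.20 in ITGB6, 3.86 in MECOM, 1.45 in EBP, 2.38 in B2M and 2.24 in ERAP2. Other kept genes had -1.71 in ANKRD1, -1.99 in CCN1, -2.09 in SNAI2 and -1.26 in HOXC10.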

How the results depend on the processing

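The count of called line differences in c-Fos cells was 3775 with 12 arrays. The share of calls higher in OVCAR8, 58.0%, was 39.8% with array weights and 66.3% and 46.9% without SKOV3 c-Fos arrays 2 and 3. Without array 1 it was 45.0%, and 56.9% with median and interquartile scaling as well. The count became 796 with only the 2 groups fitted, 6600 with all 24 arrays in 1 fit, 10679 with array weights and 2227 with a size of at least 1. Leaving out 1 array gave 2231 to 9303, and leaving out SKOV3 c-Fos array 1 with quantile normalization 9521. The control count of 3080 became 11569 with 2 groups, 11883 with array weights and 1958 with the minimum size. It was 2072 to 9953 with 1 array left out, or 10083 with quantile normalization as well. Here and below, quantile normalization as well means without SKOV3 c-Fos array 1. Quantile normalization named without those last 2 words refers to the fit of all 12 arrays. Called differences between the line differences went from 909 to 1820 with 24 arrays, 9371 with array weights and 1601 with quantile normalization, and to 537 to 6362 with 1 array left out, or 6314 with quantile normalization as well.

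Kept genes went from 1589 to 6147 with array weights and 871 with the minimum size, and to 1106 to 5614 with 1 array left out, or 5810 with quantile normalization as well. Appeared genes went from 251 to 725 with 24 arrays, 2385 with array weights and 495 with quantile normalization, and to 132 to 1527 with 1 array left out, or 1476 with quantile normalization as well. Lost genes went from 383 to 622 with 24 arrays, 2198 with array weights, and 239 to 1666 with 1 array left out, or 1661 with quantile normalization as well. Turned genes went from 93 to 146, 1540, 190 and 30 under 24 arrays, array weights, quantile normalization and the minimum size, and to 52 to 941 with 1 array left out, or 980 with quantile normalization as well. In each of these ranges array 1 of SKOV3 c-Fos was among the arrays left out. The weight given to that array was 0.00772.

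Without that array the c-Fos count of 9303 became 5660 with array weights and 2213 with the minimum size, and 8298 to 11584 with 1 more array left out. Kept genes became 1060 with the minimum size and 5138 to 6397 with 1 more array left out. Appeared genes became 589 with array weights and 916 with the minimum size, and 1216 to 2701. Lost genes became 982 with the minimum size and 1407 to 2134. Turned genes became 459 with 24 arrays, 571 with array weights and 35 with the minimum size, and 756 to 1830. The tumour count of 6802 became 2417 with the minimum size and 5745 to 7171 with 1 array left out.

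Lists with a median above 0 went from 11 to 23 when dim genes were left out, and to 10 to 16 with an array left out, or 19 with quantile normalization as well. Chromosomes with a median above 0 went from 5 to 8 with median and interquartile scaling and 17 without dim genes, and to 2 to 9 with an array left out, or 12 with quantile normalization as well. The motif share among genes higher in OVCAR8 lay between 4.47 and 5.32 percent with an array left out, at 5.35 with quantile normalization as well and at 5.76 with only the 2 groups fitted, which is above the 5.58 percent of all tested genes. With 1 array left out FOS ranged from -0.43 to 0.19, its sign turning without SKOV3 c-Fos array 2, and KRT8 and FOSL1 to -0.96 and -0.45 with median and interquartile scaling. The causes were not tested.

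With the replicate number as a block 3330 genes were called, 3319 of them among the 3775, and the differences between line differences numbered 690. Arrays of the same number in the 2 c-Fos groups deviated with correlations of -0.042, 0.142 and -0.308, and array 1 of SKOV3 correlated best with array 3 of OVCAR8. Array 1 of SKOV3 lies far from arrays 2 and 3 and so shapes all deviations of its group. These correlations therefore cannot show whether arrays of the same number belong together.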

Other observations

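Besides chromosome 18, chromosome 19 had a high share of genes higher in SKOV3 c-Fos cells without SKOV3 c-Fos array 1, 38.5%, and chromosomes 15 and 7 high shares of genes higher in OVCAR8, 34.4% and 32.8%. Among kept genes 175 also had a called change in size with 12 arrays, 56 of them larger and 119 smaller with c-Fos. With 11 arrays 2113 kept genes did, 1130 larger and 983 smaller, so the more frequent direction turned. Complement C5 read 4.90, 5.06 and 4.97 in OVCAR8 c-Fos cells and 6.06, 6.56 and 6.89 in SKOV3 c-Fos cells, a difference of -1.53 against 0.64 in the controls. It was -1.75 without SKOV3 c-Fos array 1, where C5 passed from appeared to turned.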
